A study of Mus musculus with 5 samples.

Results

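The genes described here encode the core proteins of pre-mRNA splicing that carry the names Srsf, Hnrnp, Snrp, Sf3a and Sf3b. Every gene on the array whose platform symbol begins with one of these names was taken, where at least 1 probe set names that gene and no other. This gave 47 of the 18194 genes on the array, with 10 Srsf, 19 Hnrnp and 9 Snrp genes and 9 Sf3 genes, the last made up of 3 Sf3a and 6 Sf3b genes. Of the 47, 44 passed the filter on low signals and were among the 12082 genes tested, and Srsf12, Hnrnpll and Snrpn did not. The symbols choose the genes within these families, and the filter on signal then set which were tested. The families themselves were chosen with earlier results of these data known.

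The arrays measured germinal centre B cells, which multiply in the follicles of lymphoid organs during an immune response and change their antibody genes there. They were sorted by flow cytometry from spleens of C57BL/6 littermates aged 12 weeks, on day 7 after sheep red blood cells were given. The REL group has 2 arrays of eGFP+ cells from relfl/flCg1-Cre mice, in which the Cre recombinase can delete loxP-flanked Rel alleles, and Rel encodes the NF-kB subunit c-Rel. The WT group has 3 arrays of eGFP− cells from mice with Cg1-Cre alone, so both groups carry the Cre, which is driven from the immunoglobulin gamma 1 locus. The eGFP gate and the genotype differ together between the groups and cannot be told apart. The labels do not say that the arrays came from separate animals, so a p-value reflects the scatter among these 5 arrays, and that scatter may be technical.

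Splicing removes introns in a machine built anew on each intron, the spliceosome. Its small nuclear ribonucleoproteins, or snRNPs, each hold an RNA wrapped in a ring of Sm proteins, and the SF3a and SF3b complexes belong to the U2 snRNP, which marks the branch point of the intron. SR proteins, encoded by the Srsf genes, mostly bind exons and favour their inclusion, while hnRNP proteins coat nascent RNA and often work against exon inclusion, and the balance of these families sets which exons are kept. In B lymphocytes RNA processing is also part of the switch between membrane and secreted antibody.

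Values are MAS5 signals as deposited, and differences are REL minus WT on the log2(signal + 16) scale, from limma fitted to all 12082 genes with Benjamini-Hochberg adjustment and a threshold of 0.05. The signal of a probe set also depends on its probes, so signals are set against each other between arrays only. Rel had signals of 18.6 and 85.2 on the REL arrays, against 492, 134 and 206 on the WT arrays, a difference of −2.12 (SE 0.73) with a limma adjusted p of 0.46, or −1.34 without REL replicate 1. For Rel the groups did not overlap, and whether its probe set lies in the deleted part is not given in the labels. Of 12 B cell and germinal centre B cell markers 10 were measured, and their summed signal was 59061 to 66359 in REL and 56806 to 68730 in WT. Of 18 macrophage and monocyte markers 13 were measured, and C1qa, C1qc, Cd163, Marco and Cd14 lay below the filter. Of the 13, 11 were higher in REL and 10 lay above every WT array, beside 9.53% of all genes. Adgre1 and Fcgr1 were lower, Adgre1 with both REL arrays below all WT arrays (−0.83). Vcam1, Mertk, Spic and Mrc1 lay under the filter signal of 23.1 on every WT array, so they passed only through the REL arrays. These counts are therefore tilted towards REL. The list had a summed signal of 6227 to 6565 in REL and 1393 to 1948 in WT. Of 10 T cell, 10 erythroid and platelet, 8 neutrophil and 7 stromal and endothelial markers, 3, 5, 3 and 4 were measured. The T cell list summed to 5363 to 6544 in REL and 4893 to 5446 in WT. Most of that sum was Cd2, at 5725 and 5088 on the REL arrays, against 4396, 5233 and 4743 on the WT arrays. Cd3e, Cd3d, Cd3g, Cd4 and Cd8b1 lay below the filter. The erythroid and platelet list summed to 112 to 335 in REL and 359 to 618 in WT. The neutrophil list summed to 111 to 413 in REL and 168 to 1344 in WT, and the stromal and endothelial list to 390 to 602 in REL and 222 to 289 in WT. The sums take in every listed gene on the array, also those below the filter. No measured marker had a signal of exactly 0, and the part of these other cells in the results below was not tested. In such bulk samples fewer cells of a type and less RNA per cell cannot be told apart.

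The median difference of the splicing genes was −0.07, and that of all genes tested was also −0.07, with 28 splicing genes lower and 16 higher in REL. Of all genes 6866 were lower and 5216 higher. No splicing gene passed the limma threshold, and 1 of all genes did, which is 0.00828% of those tested. That gene was Vcam1, of the macrophage and monocyte list. Its signals were 671 and 390 on the REL arrays, against 2.46, 0.833 and 2.01 on the WT arrays. At an unadjusted p under 0.05 there were 2 splicing genes lower, Srsf6 and Sf3b3, and 1 higher, Hnrnpul2, where 4.99% of all genes were lower and 3.24% higher. With each array centred on its median, 0 splicing genes were under 0.05, beside 802 of all genes. Without the trend option of limma there were also 0, beside 928 of all genes. The limma adjusted p of the 44 genes ran from 0.401 to 0.995. In 9 of the 44 genes the REL arrays were both below all WT arrays (20.5%, against 14.3% of all genes), and in 2 they were both above all WT arrays (4.55%, against 9.53%). The 9 are Srsf6, Hnrnpa0, Hnrnpab, Hnrnpc, Hnrnph2, Snrpc, Sf3a1, Sf3a2 and Sf3b3, and the 2 are Srsf4 and Hnrnpul2. Some of the 9 lay apart by a narrow margin. For Sf3a1 REL replicate 1 had a signal of 1733 and WT replicate 1 had 1735. For Hnrnph2 REL replicate 1 had 3914 and WT replicate 3 had 3950. Centring each array on its median moved the median of all genes to 0.07, and under it 15 splicing genes were lower, in place of 28, while 43.6% of all genes were lower, in place of 56.8%. The number below every WT array was then 3 of 44, beside 8.64% of all genes, and with quantile normalization it was 4 of 44, beside 14.1% of all genes. Under neither scaling was the share of splicing genes above that of all genes. The medians used for centring were taken over all probe sets with 1 symbol, before the filter. They ran from 5.93 on REL replicate 2 to 6.43 on WT replicate 3 in log2(signal + 16). Dim probe sets thus set the shift that was applied to the bright ones.

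Most splicing genes had bright probe sets. When the genes tested were split into 4 equal groups by mean signal, 40 of the 44 were in the brightest, and there all genes had a median of −0.05 with 15.9% below every WT array. The spread between arrays of a group had a median SD of 0.14 in REL and 0.20 in WT for the splicing genes, compared with 0.36 in REL and 0.35 in WT for all genes.

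**Figure D1:**
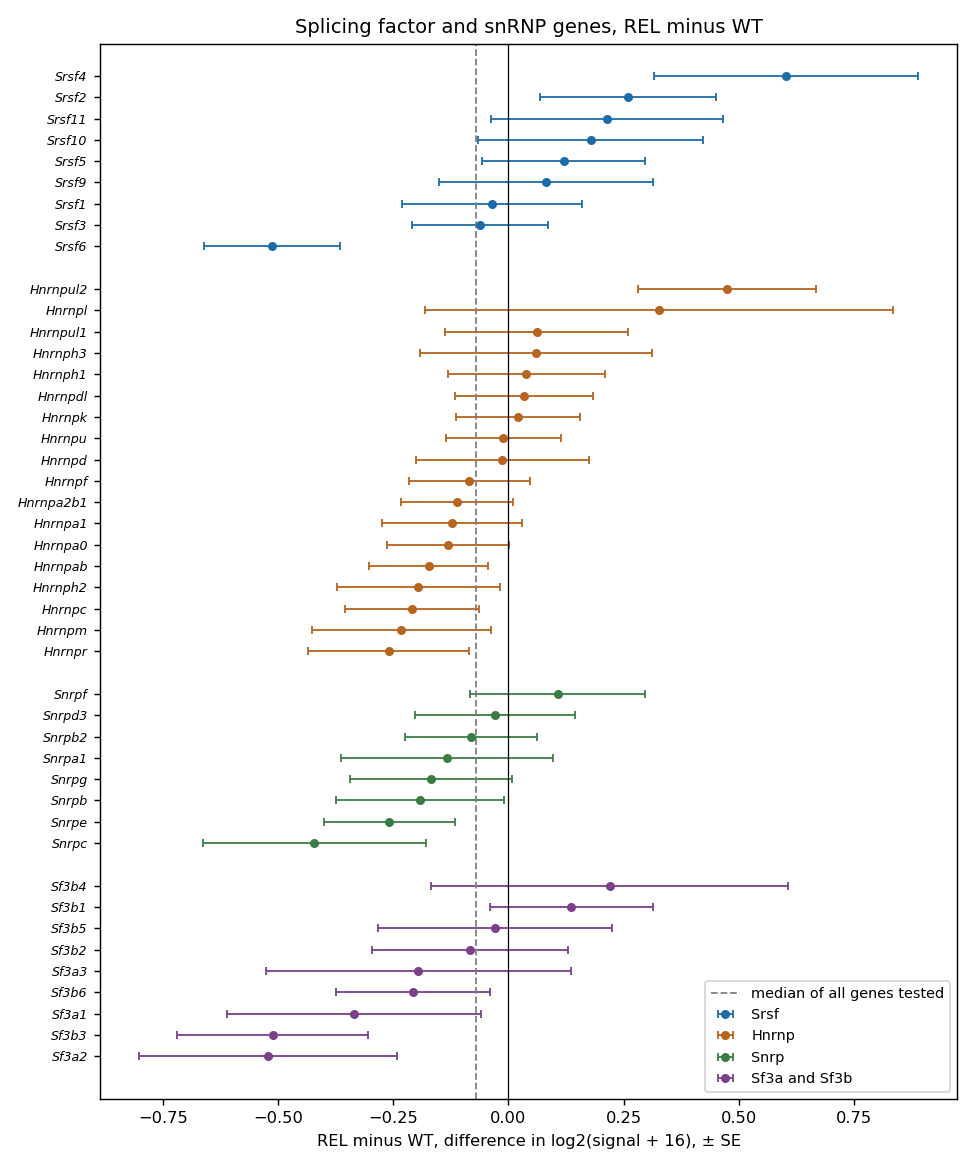
Difference between REL and WT for each of the 44 measured splicing genes, in log2(signal + 16), ordered within families. Points are limma estimates with their SE, the solid line is 0 and the dashed line is the median of all genes tested (−0.07). The largest values are 0.60 for Srsf4 and −0.52 for Sf3a2, and no gene passed the threshold.

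By family, the medians were 0.12 for Srsf, −0.05 for Hnrnp, −0.15 for Snrp and −0.20 for the Sf3 genes. Relative to the median of all genes these are 0.19, 0.02, −0.08 and −0.13, and with median centring the family medians themselves were 0.26, 0.09, −0.02 and −0.06, so the Hnrnp median changed sign. The arrays of a group did not give the same picture. Over probe sets the log2 signals of REL replicates 1 and 2 had a Pearson correlation of 0.935, the lowest of any pair of arrays. Pairs of WT arrays had 0.952 to 0.958, and pairs of a REL and a WT array 0.938 to 0.946. Relative to the WT mean, the median of the Srsf genes was 0.14 on both REL arrays, against 0.01, 0.15 and −0.07 on WT replicates 1 to 3. The WT replicate 2 array was thus as high as the REL arrays. The Hnrnp median was −0.06 on both REL arrays, against −0.06, 0.06 and 0.00 on the WT arrays. For the Snrp genes it was −0.34 on REL replicate 1 and 0.05 on REL replicate 2, against −0.14, 0.19 and 0.01 on the WT arrays. For the Sf3 genes it was −0.31 and 0.04 on the REL arrays, against −0.15, 0.01 and −0.06 on the WT arrays. REL replicate 1 was the lowest of the 5 arrays for 7 of 8 Snrp and 5 of 9 Sf3 genes, where it was the lowest for 23.6% of all genes. Without it the median of all splicing genes was 0.02, that of Snrp 0.05 and that of Sf3 0.04. Without REL replicate 2 they were −0.16, −0.34 and −0.31. Of the REL arrays, replicate 1 alone gave negative Snrp and Sf3 medians. The RNA integrity measure of the array, the Actb 3′ signal divided by its 5′ signal, was 1.64 and 1.73 on REL replicates 1 and 2, against 1.58, 1.73 and 2.45 on the WT arrays. The array's 18S ribosomal RNA controls were higher in REL, the 5′ probe set with signals of 1671 and 1984 on the REL arrays, against 858, 536 and 293 on the WT arrays. The middle probe set had 11953 and 13417 on the REL arrays, against 9822, 8696 and 9154 on the WT arrays, and the 3′ probe set 1194 and 1098 on the REL arrays, against 746, 718 and 904 on the WT arrays. In all 3 the REL arrays were both above all WT arrays, and the part of this in the differences of the splicing genes was not tested.

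**Figure D2:**
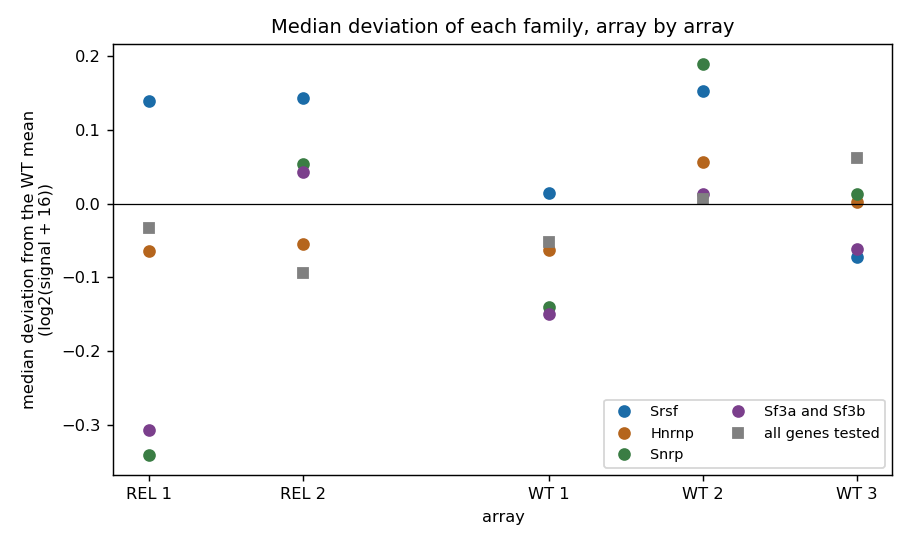
Median deviation of each family from the WT mean on each array, in log2(signal + 16), with REL arrays on the left and WT arrays on the right. Circles are families and grey squares all genes tested. The Snrp and Sf3 medians are low on REL replicate 1 (−0.34 and −0.31) and near 0 on REL replicate 2 (0.05 and 0.04), while the Srsf median is 0.14 on both.

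Among the SR proteins 6 of the 9 measured genes were higher and 3 lower in REL, and none passed the threshold. Srsf6, an SR protein that binds exonic enhancers, had signals of 4726 and 4768 on the REL arrays, against 6775, 6896 and 6670 on the WT arrays. The groups did not overlap, and the arrays of each group lay close together, at 4747 ± 29.5 in REL (SD, n = 2) and 6780 ± 113 in WT (SD, n = 3). The difference was −0.51 (SE 0.15), a ratio of 0.701, with a limma adjusted p of 0.401, and leaving out any array gave −0.52 to −0.50. Srsf6 had the smallest p of the splicing genes and ranked 183 by p among all genes. This place depended on the processing. The smallest p was that of Srsf4 with each array centred on its median. It was that of Srsf11 with every probe set tested, and that of Snrpd3 with the mean of probe sets. The other 3 probe sets of Srsf6, which can read other parts of the transcript, gave −0.21, −0.37 and 0.15. Srsf4, a close relative of Srsf6, lay the other way, with signals of 1606 and 1992 on the REL arrays, against 1388, 983 and 1180 on the WT arrays. No WT array reached a REL array, and the difference was 0.60 (SE 0.29) with a limma adjusted p of 0.635 from its single probe set.

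The windows before the start sites of Srsf6 and Srsf4 are shown as the pair of SR protein genes whose groups did not overlap and lay in opposite directions. They are the 250 bases upstream, from RefSeq on GRCm38.p6, for Srsf6 chr2:162931258-162931507 on the plus strand and for Srsf4 chr4:131873387-131873636 on the plus strand. Capitals mark the GC box GGGCGG and the ETS motif CCGGAAG, on either strand.
Srsf6: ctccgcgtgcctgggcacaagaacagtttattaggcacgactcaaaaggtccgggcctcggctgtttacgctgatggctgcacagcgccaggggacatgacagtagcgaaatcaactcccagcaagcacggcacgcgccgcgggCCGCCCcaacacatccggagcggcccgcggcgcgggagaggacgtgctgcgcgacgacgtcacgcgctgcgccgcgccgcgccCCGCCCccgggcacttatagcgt
Srsf4: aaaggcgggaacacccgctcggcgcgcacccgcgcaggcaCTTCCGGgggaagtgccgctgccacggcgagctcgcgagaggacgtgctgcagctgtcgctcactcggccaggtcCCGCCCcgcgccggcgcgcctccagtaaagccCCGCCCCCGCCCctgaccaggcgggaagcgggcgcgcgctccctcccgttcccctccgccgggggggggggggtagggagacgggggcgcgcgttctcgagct
The Srsf6 window held 2 GC boxes and no ETS motif, and the Srsf4 window 1 ETS motif and 3 GC boxes, the last 2 of which lie end to end and share no base. The GC content of the windows shown was 68.4% for Srsf6 and 77.2% for Srsf4. Other annotated start sites of Srsf4 have their own windows. The one at chr4:131873389-131873638 held the same numbers of both motifs. The one at chr4:131873810-131874059 held 2 GC boxes and no ETS motif.

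The other SR proteins were closer to 0. Srsf2, also known as SC35 and a component of nuclear speckles, had signals of 6640 and 6011 on the REL arrays, against 5323, 6371 and 4323 on the WT arrays. WT replicate 2 lay between the REL arrays, and the difference was 0.26 (SE 0.19, limma adjusted p = 0.783), with 0.12 without WT replicate 3 and 0.40 without WT replicate 2. Srsf1, the founding SR protein ASF/SF2, had 11216 and 16684 on the REL arrays, against 11712, 17096 and 13766 on the WT arrays, a difference of −0.04 (SE 0.20). Its signals spread as widely within each group as between them. Srsf3, a small SR protein that also takes part in mRNA export, had 9690 and 10996 on the REL arrays, against 9292, 11978 and 11231 on the WT arrays, a difference of −0.06 (SE 0.15). The sign for Srsf1 and Srsf3 turned with quantile normalization (0.06 and 0.05) and with median centring (0.10 and 0.07). Srsf11 was at 0.21, Srsf10, which can act as a splicing repressor, at 0.18, Srsf5 at 0.12 and Srsf9 at 0.08. Srsf12, below the filter, had signals of 8.08 and 0.772 on the REL arrays, against 4.63, 8.18 and 15.3 on the WT arrays.

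The hnRNP genes were 11 lower and 7 higher among 18 measured. Hnrnpul2, related to the scaffold protein gene Hnrnpu and known for a part in the DNA damage response, had signals of 4906 and 6027 on the REL arrays, against 4518, 3389 and 3904 on the WT arrays. The REL arrays were both above all WT arrays, and the difference was 0.47 (SE 0.19, limma adjusted p = 0.558), while its other probe set gave −0.14. Hnrnpc, which binds uridine-rich tracts, had 6404 and 5890 on the REL arrays, against 6760, 7038 and 7528 on the WT arrays. REL and WT arrays did not overlap, and the difference was −0.21 (SE 0.15, limma adjusted p = 0.767), with all 3 of its probe sets lower. Hnrnpab, an RNA-binding protein gene also studied as a DNA-binding factor, had 8579 and 8767 on the REL arrays, against 9208, 9784 and 10385 on the WT arrays. Here too the groups did not overlap, at −0.17 (SE 0.13, limma adjusted p = 0.789), but its 7 probe sets ran from −0.62 to 0.51, 4 of them lower and 3 higher.

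Hnrnpr, an RNA-binding protein gene studied most in neurons, showed how far a value can rest on the choice of probe set. The probe set used had signals of 5087 and 4130 on the REL arrays, against 5061, 5426 and 6034 on the WT arrays, a difference of −0.26 (SE 0.18, limma adjusted p = 0.755). The groups overlapped by REL replicate 1. A probe set with nearly the same mean signal had 4119 and 4028 on the REL arrays, against 5774, 5952 and 5957 on the WT arrays, with no overlap and a difference of −0.53. It becomes the brightest when probe sets are ranked by their mean linear signal, a choice added after the data were seen, and its limma adjusted p was then 0.412. It also becomes the brightest when either REL array is left out, which gave −0.55 without REL replicate 1 and −0.52 without REL replicate 2. The other 3 probe sets of Hnrnpr lay at 0.08, 0.77 and 1.00, the last 2 of them dim, and the mean over the probe sets was 0.21.

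The hnRNP genes with the brightest probe sets differed little. Hnrnpu, which ties RNA to chromatin, had signals of 11487 and 12405 on the REL arrays, against 11140, 13087 and 11932 on the WT arrays, a difference of −0.01 (SE 0.13). Hnrnpf, which binds guanine tracts, had 11545 and 11198 on the REL arrays, against 10696, 12538 and 13076 on the WT arrays, a difference of −0.08 (SE 0.13). For both genes the REL arrays lay within the range of the WT arrays, and the sign turned with quantile normalization (0.09 and 0.03) and median centring (0.12 and 0.05). Of the A/B group, which often represses exon use, Hnrnpa0 was at −0.13, Hnrnpa1 at −0.12 and Hnrnpa2b1 at −0.11. Of the guanine tract binders Hnrnph2 was at −0.20, Hnrnph1 at 0.04 and Hnrnph3 at 0.06. Hnrnpm was at −0.23, Hnrnpd, which also binds AU-rich elements of mRNAs, at −0.01, and its relative Hnrnpdl at 0.03. Hnrnpk, which binds cytosine-rich RNA, was at 0.02 and Hnrnpul1 at 0.06. Hnrnpl was at 0.33 with an SE of 0.51, since WT replicate 3 had a signal of 234 and WT replicates 1 and 2 had 529 and 609, against 560 and 513 on the REL arrays. Hnrnpll, a regulator of Ptprc splicing in lymphocytes, lay below the filter, with signals of 14.6 and 6.16 on the REL arrays, against 2.32, 16.5 and 14.1 on the WT arrays.

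Of the snRNP protein genes 7 of 8 measured were lower and 1 higher. Snrpe, part of the Sm ring, had signals of 10989 and 11720 on the REL arrays, against 11452, 14767 and 14806 on the WT arrays. REL replicate 2 lay above WT replicate 1, so the groups overlapped, and the difference was −0.26 (SE 0.14, limma adjusted p = 0.695). Snrpc, the U1 snRNP protein that steadies the pairing of U1 with the 5′ splice site, had 2275 and 2321 on the REL arrays, against 2831, 4025 and 2570 on the WT arrays. There was no overlap, with the REL arrays alike and the WT arrays spread, and the difference was −0.42 (SE 0.24, limma adjusted p = 0.708), or −0.23 without WT replicate 2. The other Snrpc probe set, a dim one, gave 0.45, and the mean of both was 0.01. Snrpb, which encodes the Sm proteins B and B′, had 5576 and 7395 on the REL arrays, against 6576, 6987 and 8593 on the WT arrays, a difference of −0.19 (SE 0.18, limma adjusted p = 0.837). Snrpg, another Sm protein gene, had 9612 and 13387 on the REL arrays, against 10813, 14754 and 12982 on the WT arrays, a difference of −0.17 (SE 0.18). In both Snrpb and Snrpg REL replicate 1 was the lowest of the 5 arrays and REL replicate 2 lay inside the WT range, and without REL replicate 1 the differences were 0.01 and 0.07.

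The remaining Sm protein genes were Snrpf at 0.11 and Snrpd3 at −0.03, and the median over the 5 measured genes of the ring was −0.17. Snrpa1 and Snrpb2, which encode a pair of proteins specific to the U2 snRNP, were at −0.13 and −0.08. Snrpn, a relative of Snrpb best known as an imprinted gene of the brain, lay below the filter with signals of 18.5 and 12.0 on the REL arrays, against 4.35, 41.2 and 7.83 on the WT arrays. Probe sets that name several genes were left out, so Snrpd1, Snrpd2, Snrpa and Hnrnpa3 are not analysed here. Srsf7 is also not among the 47 genes, so the Srsf counts do not cover that family in full.

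The 3 subunits of SF3a, which joins the U2 snRNP late in its maturation, were all lower by their brightest probe sets, with a median of −0.34. Sf3a2 had signals of 2652 and 1883 on the REL arrays, against 2771, 2668 and 4493 on the WT arrays. The groups did not overlap, by a narrow margin between REL replicate 1 and WT replicate 2, and the difference was −0.52 (SE 0.28, limma adjusted p = 0.686). It was −0.28 without WT replicate 3, −0.28 without REL replicate 2 and −0.77 without REL replicate 1. Its other probe set gave 0.26. Sf3a1 was at −0.34, with all 3 of its probe sets above the filter lower. Sf3a3 was at −0.20, while its other probe set, with a mean signal of 704 against 910, gave 0.17.

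The 6 subunits of SF3b had a median of −0.06. Sf3b3, a large scaffold subunit that supports Sf3b1, had signals of 3594 and 3139 on the REL arrays, against 4246, 4330 and 5999 on the WT arrays. The groups did not overlap, and the difference was −0.51 (SE 0.21, limma adjusted p = 0.555), with −0.61 to −0.35 when any array was left out. Sf3b1, the subunit that clamps the branch point helix and is mutated in some leukaemias, was at 0.14. Sf3b6, which lies next to the branch point adenosine, had 6065 and 6977 on the REL arrays, against 7189, 8811 and 6682 on the WT arrays, a difference of −0.21 (SE 0.17), with −0.09 without WT replicate 2 and −0.11 without REL replicate 1. The WT replicate 3 array lay between the REL arrays. Sf3b2 had 5572 and 9109 on the REL arrays, against 6546, 8432 and 7798 on the WT arrays, a difference of −0.08 (SE 0.21). Its REL arrays held both the lowest and the highest signal of the 5. Sf3b4 was at 0.22 and Sf3b5 at −0.03.

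The upstream windows of Sf3a2 and Sf3b3 are shown as those of the Sf3 genes with the smallest p. They lie at chr10:80798485-80798734 on the plus strand for Sf3a2 and chr8:110846804-110847053 on the minus strand for Sf3b3, on GRCm38.p6 from RefSeq, and capitals again mark the GC box and the ETS motif.
Sf3a2: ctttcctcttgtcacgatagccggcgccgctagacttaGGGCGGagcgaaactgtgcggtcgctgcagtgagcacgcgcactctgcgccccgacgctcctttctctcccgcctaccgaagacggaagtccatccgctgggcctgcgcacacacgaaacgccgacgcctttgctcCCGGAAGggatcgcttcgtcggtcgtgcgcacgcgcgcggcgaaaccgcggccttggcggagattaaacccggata
Sf3b3: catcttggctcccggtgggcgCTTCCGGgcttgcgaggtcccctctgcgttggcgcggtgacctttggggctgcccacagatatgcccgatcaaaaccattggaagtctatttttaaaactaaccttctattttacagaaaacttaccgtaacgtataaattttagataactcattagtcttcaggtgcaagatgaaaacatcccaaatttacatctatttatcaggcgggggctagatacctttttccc
Each held 1 ETS motif, and Sf3a2 also held 1 GC box. Promoter windows were found for 42 of the 47 genes, 58 windows in all, since some genes have several start sites. Of the 58 windows 31% held the ETS motif, against 6.91% of the 32851 windows in the table, and 65.5% held a GC box, against 32.7%. The windows of the splicing genes were also richer in G and C, with a median of 60.6% against 52.4%. By family the ETS motif was found for 6 of 7 Sf3 genes, 3 of 8 Snrp genes, 3 of 10 Srsf genes and 2 of 17 Hnrnp genes. The E-box CACGTG was in 3.45% of the 58 windows, against 6.02% of all, the NRF1 motif in 1.72%, against 0.782%, and the kappaB consensus in 0, against 3.9%. These matches describe the letters of the windows alone.

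**Figure D3:**
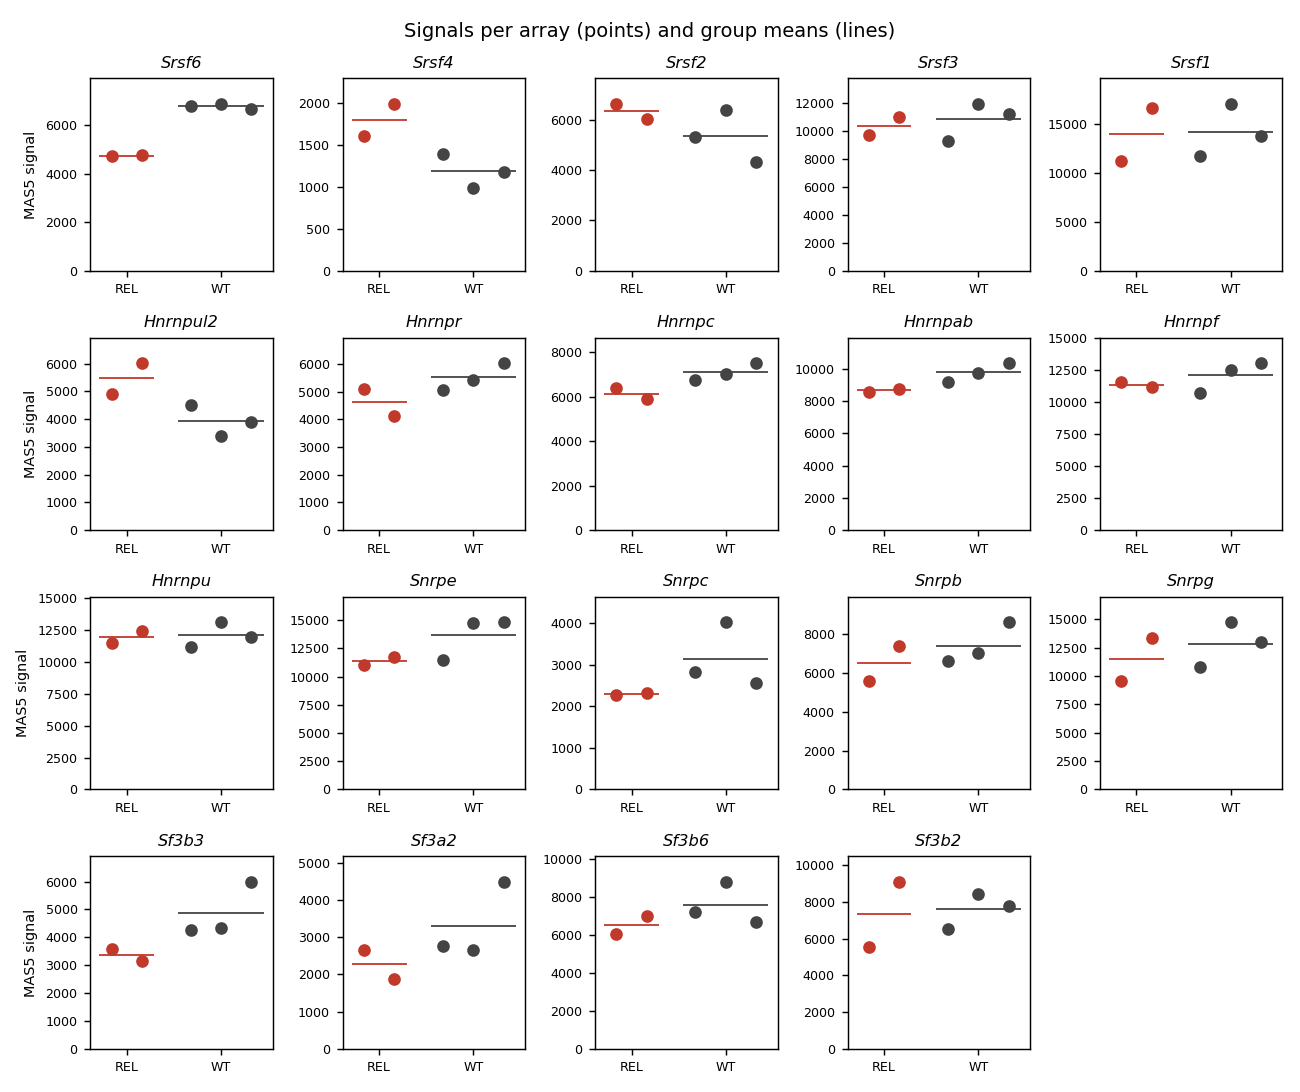
MAS5 signals of 19 splicing genes on each array, with REL arrays on the left of each panel, WT arrays on the right, and lines at the group means. The signal axes start at 0. Srsf6, Hnrnpc, Hnrnpab, Snrpc, Sf3b3 and Sf3a2 have both REL arrays below every WT array, and Srsf4 and Hnrnpul2 have both above.

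The array carries 139 probe sets for the 47 genes, of which 134 passed the filter, and they show what the brightest probe set of a gene leaves out. Of these 134, 80 were lower and 54 higher, and no probe set passed the limma threshold when all 22211 were tested. Of the 34 genes with several probe sets 22 had them in both directions. A difference below −1 was seen for 5 of the 134 (3.73%, against 7.05% of all probe sets), and above 1 for 1 (0.746%, against 5.88%). These 6 probe sets were picked after their values were seen. For Srsf11, an SR-related protein gene, the second brightest probe set had signals of 660 and 200 on the REL arrays, against 1629, 1964 and 2570 on the WT arrays, a difference of −2.41 (SE 0.47, limma adjusted p = 0.302 over all probe sets). The brightest Srsf11 probe set, annotated to the same transcript sequence record, had 3030 and 2288 on the REL arrays, against 2305, 2737 and 1848 on the WT arrays. The groups were thus well apart in the one and overlapped in the other.

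For Snrpd3, an Sm protein gene, a probe set annotated to the same record as the brightest had signals of 38.2 and 59.2 on the REL arrays, against 936, 89.2 and 1118 on the WT arrays, a difference of −2.92 (SE 0.96). A further one had 8.30 and 4.55 on the REL arrays, against 472, 54.4 and 285 on the WT arrays, a difference of −3.28 (SE 0.82). In both, WT replicate 2 lay far below the other WT arrays and still above the REL arrays. The brightest Snrpd3 probe set had 8030 and 10903 on the REL arrays, against 9149, 11136 and 8541 on the WT arrays, with overlap. For Hnrnpd, 2 dim probe sets lay apart from the brightest. The first had signals of 179 and 87.7 on the REL arrays, against 390, 322 and 396 on the WT arrays, a difference of −1.43 (SE 0.54). The second had 55.5 and 23.8 on the REL arrays, against 79.8, 549 and 365 on the WT arrays, a difference of −2.36 (SE 0.81), and the groups did not overlap in either. Which transcript forms these probe sets read was not tested.

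**Figure D4:**
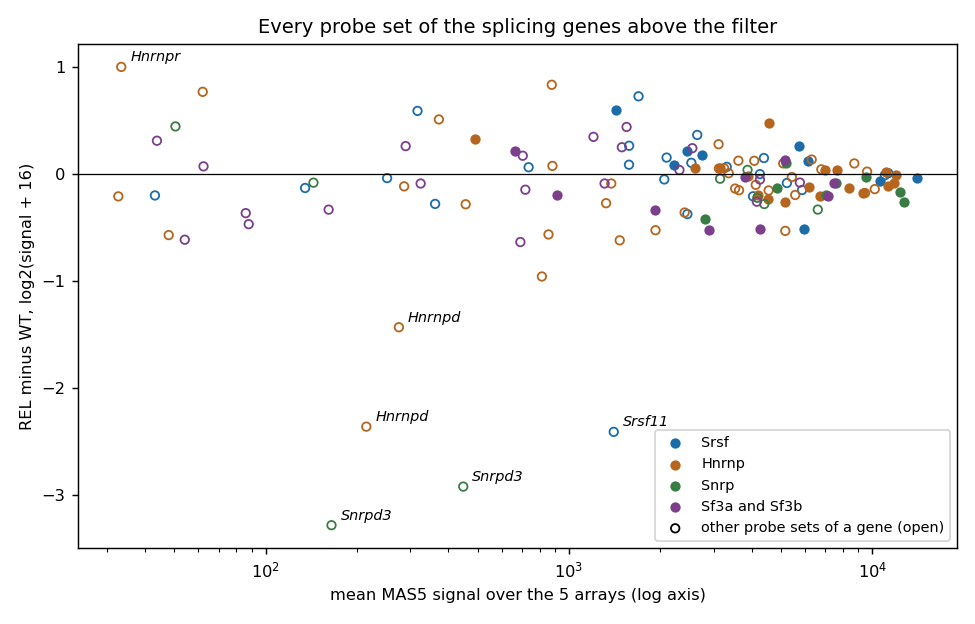
Difference between REL and WT of each of the 134 probe sets of the splicing genes above the filter, in log2(signal + 16), against the mean signal over the 5 arrays on a log axis. Filled circles are the probe sets used for the genes and open circles the others. The 6 named points lie beyond 1 in either direction, all are open, and 5 of them are below −1.

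Other genes of the splicing pathway were taken from 8 lists written from general knowledge. Of 123 listed genes 113 were on the array and 112 were measured, with 63 lower, 49 higher and none past the limma threshold, and their median was −0.02. The REL arrays were both below all WT arrays in 14 of the 112 and both above in 10, beside 14.3% and 9.53% of all genes. The tri-snRNP and other U snRNP proteins were 12 lower and 8 higher, with Snrnp25, a protein of the minor spliceosome, at 0.75 (SE 0.29) and Snrnp35, of the same machine, at −1.21 (SE 0.50). Of the factors that recognise the branch point and the 3′ splice site 6 were lower and 6 higher. U2af2, which binds the polypyrimidine tract, had signals of 2395 and 2231 on the REL arrays, against 1642, 1511 and 1527 on the WT arrays (0.56, SE 0.24, limma adjusted p = 0.571), and U2surp was at 0.59. The LSm proteins were 4 lower and 5 higher, with Lsm7 at 0.67 and Lsm1 at 0.25. The Prp19 complex and catalytic-step factors were 14 lower and 6 higher, with Prpf18 at −1.09 and Bud31 at −0.33.

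The SR protein kinases and SR-related proteins were 9 lower and 8 higher. Among them Tnpo3, the importin that carries SR proteins into the nucleus, had signals of 1282 and 1634 on the REL arrays, against 2992, 2634 and 2453 on the WT arrays. The groups did not overlap, and the difference was −0.88 (SE 0.24, limma adjusted p = 0.372), while Rnps1 was at −0.32. Other regulators that bind RNA were 5 lower and 13 higher, with Rbm5 at 0.71 (SE 0.24, limma adjusted p = 0.458) and Khdrbs1, the gene for Sam68, at −0.31. The list of snRNP assembly factors, which load Sm rings onto snRNAs, was 12 lower and 1 higher with a median of −0.28. In it Wdr77, a partner of the arginine methyltransferase that modifies Sm proteins, was at −0.53 and Snupn, the import adaptor of snRNPs, at −0.93, with limma adjusted p of 0.695 and 0.7. Of the 3 exon junction complex genes measured 1 was lower and 2 higher, with Rbm8a at 0.31 and Casc3 at 0.18.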

How the data were processed

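Total RNA of sorted cells was amplified with the NuGEN Ovation system and biotin-labelled, per the labels' protocols. The authors deposited MAS5 signal intensity values on a linear scale for 45101 probe sets on 5 arrays, made with MAS5 (no version given) per the submitters' processing notes. Every array had a 2% trimmed mean of 500. Median signals were 30.1 to 54.6, and the number of arrays limits the precision. The sample titles gave the groups.

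Gene symbols came from the platform's annotation table, and probe sets with exactly 1 symbol were kept (34958, with 932 naming several and 9211 none). Signals were transformed as log2(signal + 16), which understates changes of dim genes, with no normalization between arrays. Probe sets in the lowest 40% by mean, which is under a signal of 23.1, were dropped, and each gene was represented by its brightest remaining probe set. In R 4.3.3, limma 3.58.1 tested 12082 genes, two-sided, using lmFit and then eBayes with the trend option, with 3 residual and 6.84 prior degrees of freedom. On simulated data with 200 of 12082 genes changed, the comparison called 20.9% of those changed 2-fold and 62% of those changed 4-fold, beside 5.8 false calls in a run, averaged over 10 runs.

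The splicing genes and lists were chosen with earlier results of these data known. Signals by array are given for the 3 genes with the smallest p in a family (2 for Sf3), the 2 brightest, and those whose probe sets lie in both directions by at least 0.5, and for the genes of other lists with the smallest p by difference. Signals by array of other genes, chosen after their values were seen, are given for Srsf12, Hnrnpll, Snrpn, Hnrnpl, U2af2, Tnpo3 and the probe sets of Srsf11, Snrpd3 and Hnrnpd. Single arrays of Sf3a1 and Hnrnph2 were also picked after their values were seen. All 47 genes matched RefSeq. Alternatives were each array left out, a replicate block, no trend, every probe set or the mean of probe sets, median centring or quantile normalization, a 60% filter or none, and adding 1 or 64 in place of 16, and, added after the data were seen, ranking probe sets by mean linear signal. Python 3.11.15 with pandas 2.3.3 and matplotlib 3.10.9 was used for promoter counts and plots.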

Additional observations from a re-analysis of the deposited data

How the results depend on the processing

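No splicing gene was called under any alternative run. The 1 call over all genes became 0 with 1 or 64 added, no filter, a 60% filter, the mean of probe sets, every probe set or no trend, 2 with quantile normalization and 18 with the replicate block. The block fit leaves 1 residual degree of freedom, beside 21.8 prior ones. WT replicate 3 is alone in its block there and does not inform the difference. With quantile normalization the Hnrnp median was 0.014, 4 of 44 genes lay below every WT array (14.1% of all genes), and Srsf1, Srsf3, Hnrnpu and Hnrnpf were at 0.056, 0.048, 0.093 and 0.028. With median centring the medians of all genes, all splicing genes, Srsf, Hnrnp and Sf3 were 0.066, 0.064, 0.26, 0.087 and −0.060, 15 splicing genes were below 0, 3 lay below every WT array (8.64% of all genes), and Srsf1, Srsf3, Hnrnpu, Hnrnpf and Sf3b2 were at 0.10, 0.074, 0.12, 0.051 and 0.052. With the mean of probe sets Srsf3, Hnrnpr, Hnrnpu, Snrpc and Sf3b2 were at 0.076, 0.21, 0.056, 0.012 and 0.079. With every probe set the Sf3 median was −0.083, and 21 of 134 probe sets lay below and 7 above every WT array (13.5% and 10.4% of all probe sets). The cause of these shifts was not tested.

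With each array left out in turn and probe sets chosen anew, calls ran from 0 to 8, the median of all splicing genes from −0.16 to 0.018, Snrp from −0.34 to 0.053 and Sf3 from −0.31 to 0.042, each highest without REL replicate 1. Genes below every WT array numbered 10 to 24 and above 3 to 8, with 17.5% to 34.7% of all genes below and 13.9% to 26.5% above, since fewer arrays then have to lie apart. Srsf1 ran from −0.32 to 0.25, Srsf3 from −0.17 to 0.030, Hnrnpu from −0.066 to 0.050, Snrpb from −0.39 to 0.011, Snrpg from −0.41 to 0.071 and Sf3b2 from −0.44 to 0.27.

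With probe sets kept as chosen on all 5 arrays, there were 0 calls without any WT array, 8 without REL replicate 1 and 2 without REL replicate 2. Without REL replicate 1 the medians of all splicing genes, Snrp and Sf3 were 0.018, 0.053 and 0.042, 8 genes lay above every WT array (24.6% of all genes), and Srsf1, Srsf3, Hnrnpu, Snrpb, Snrpg and Sf3b2 were at 0.25, 0.030, 0.045, 0.011, 0.071 and 0.27. Without REL replicate 2 these medians were −0.15, −0.34 and −0.31, with 23 genes below and 4 above every WT array (31.2% and 26.5% of all genes). Without WT replicate 1, 14 genes lay below and 5 above (23.9% and 14.0%). Without WT replicate 2 the Sf3 median was −0.091, 5 genes lay above (13.7%), and Srsf1, Srsf3 and Hnrnpu were at 0.11, 0.015 and 0.050.

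The groups share the replicate numbers 1 and 2 only, and the deviations of same-numbered arrays from their group means correlated at −0.04 and −0.02. With only 2 REL arrays, the deviations of one are those of the other with the sign turned. These values therefore cannot show whether the arrays were paired. With the replicate block the splicing gene median was −0.08, and 31 were lower. These are the values without WT replicate 3 and with probe sets kept, since that array is alone in its block. In simulation 20.9% of 2-fold changes were called, in genes drawn at random from all genes tested, which had a median SE of 0.48. The splicing genes had a median SE of 0.18, so this share does not give the recovery for them, which was not simulated. The differences of all 44 splicing genes were under 2-fold.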
